A study of Rattus norvegicus with 14 samples.

Results

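The genes described here encode the proteasome and the proteins that build and regulate it, followed over 1 day in the pineal gland and the retina of the rat. They were taken by gene symbol: every gene whose symbol starts with Psma, Psmb, Psmc, Psmd, Psme, Psmf or Psmg and a number. That gave 48 genes of the 16472 measured, each with a single transcript. By textbook role 46 of them belong to the proteasome. The other two match in name alone: Psmc3ip (also called Hop2) is a partner of the recombinases of meiosis, and Psma3l is a Psma3-like entry that overlaps Psma3 on chromosome 6. Psma8, a subunit of the testis, and the chaperone gene Psmg3 were not analysed here.

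Pineal glands and retinas came from Sprague-Dawley rats, 6 to 8 weeks old, under a cycle of 14 h light and 10 h dark. Each tissue was collected at zeitgeber time (ZT, hours after lights on) 1, 7 and 13 (light) and 15, 19 and 23 (dark), with 1 library per tissue and time from a pool of 10 animals. At ZT7 and ZT19 a further pool mixed 15 tissues of 3 animals, and the retina was among those tissues. This makes 14 libraries with no repeat at any time, no genetic change and no treatment, so every p-value below is based on the spread between pools taken at different times.

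The proteasome is the cell's main machine for degrading proteins tagged with ubiquitin. Its 20S core is a barrel of stacked rings: alpha subunits (Psma) form the outer rings and the gate, and beta subunits (Psmb) form the inner rings and hold the cutting sites. The 19S cap has ATPases (Psmc) that unfold the substrate and feed it in, and non-ATPase subunits (Psmd) that bind ubiquitin chains and cut them off. Interferon induces Psmb8, Psmb9 and Psmb10, which take the places of Psmb5, Psmb6 and Psmb7 in an immunoproteasome that makes peptides for antigen presentation. In the pineal gland the proteasome is best known for degrading AANAT, the enzyme whose nightly rise drives melatonin synthesis, unless AANAT is phosphorylated and held by 14-3-3 proteins.

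Expression was deposited as FPKM, which divides the fragments of a transcript by its length and by the library's total, so levels can be compared between genes. Depth is unknown, because no counts were used. A rough floor was taken from olfactory receptor genes above 0, of which each library had 12 to 40. The 10th percentile of their values, scaled to a length of 1 kb, was assumed to be 1 fragment. It was 0.0216 to 0.0527 FPKM, depending on the library. FPKM summed to 163087 in pineal ZT19 and to between 174889 and 180522 in the other pineal libraries. The sum was 179277 in retina ZT7 and between 152281 and 161184 in the other retinas. These libraries stood apart from the rest of their tissue, and the calls over the day that rest on them are given with and without them. Checked against the tissue labels, 7 pinealocyte markers summed to between 5253 and 5911 FPKM in the pineal gland, 2737 to 3886 in the retina, and 239 and 390 in the mixed pools. By the tissue test described below, 4 of the 7 were higher and 2 lower in the pineal gland than in the retina. This list thus does not part these tissues cleanly. The 5 rod markers summed to at most 5.61 FPKM in pineal glands and to at least 12200 in retinas. Lens genes summed to between 56.4 and 1009 FPKM in the retinas, highest at ZT1 and ZT19.

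Over the 45 genes tested below, the median gene had a mean level of 21.7 FPKM in the pineal gland, 15.4 in the retina and 20.2 in the mixed pools. The 48 genes together made up 0.553% to 0.640% of all FPKM in the pineal gland, 0.492% to 0.570% in the retina, and 0.575% and 0.589% in the mixed pools. Psma7, an alpha subunit, had the highest mean level in all 3 tissues, at 62.0 ± 6.00 FPKM in the pineal gland (SD, n = 6), 63.1 ± 8.43 FPKM in the retina (SD, n = 6) and 80.0 ± 8.44 FPKM in the mixed pools (SD, n = 2). Psma3 was the lowest alpha subunit, with pineal and retinal means of 11.1 and 10.1 FPKM. The subunits of a ring are present in equal number in the protein complex, and their listed transcript levels were not equal. The highest and lowest alpha subunits differed 5.56-fold in the pineal gland and the retinal ones 6.24-fold. Psma3, the lowest, overlaps Psma3l, which was listed at 0, and whether this bears on its level was not tested. The ATPases spanned a 3.24-fold range of pineal means, from Psmc6 to Psmc1. Non-ATPase cap subunits ranged from Psmd8 at 14.6 FPKM to Psmd2, a scaffold of the cap, at 54.0 FPKM in the pineal gland.

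**Figure D1:**
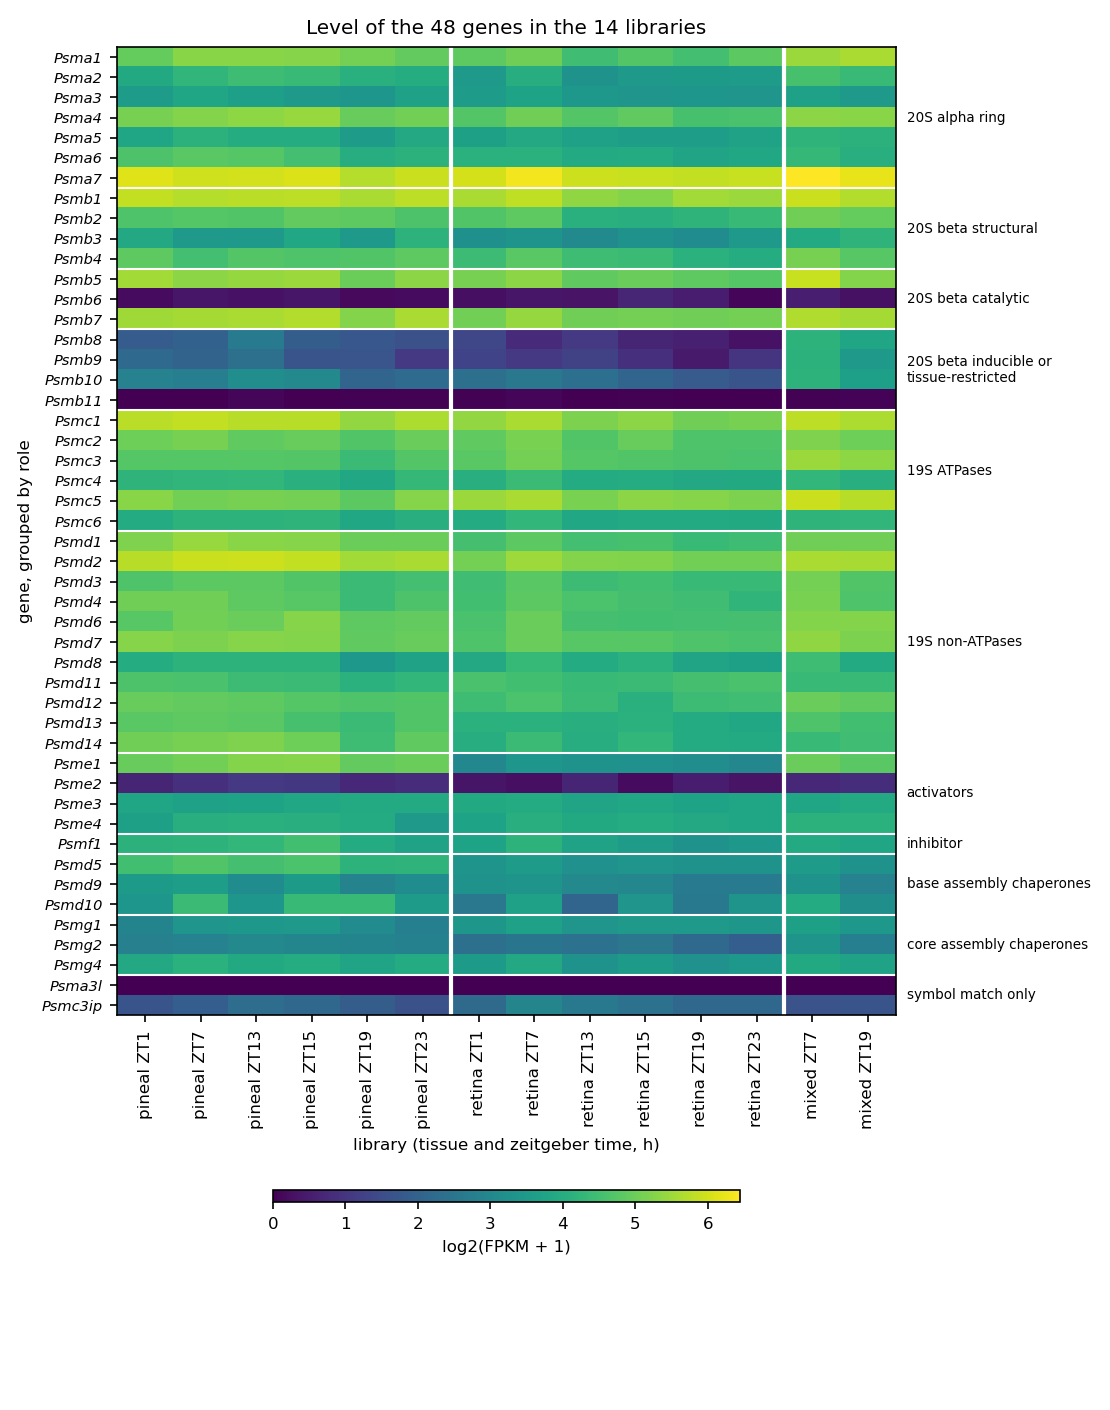
Heat map of the 48 genes (rows, grouped by role) in the 14 libraries (columns), coloured by log2(FPKM + 1). Psmb6, Psmb11, Psme2 and Psma3l are dark across all libraries, Psmb8 to Psmb10 are brightest in the mixed pools, and Psma7 is the brightest row.

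Of the 48 genes, 45 were tested, having at least 1 FPKM in at least 2 libraries. Psmb6, Psmb11 and Psma3l stayed under 1 FPKM everywhere. Psmb6, on chromosome 10 (rn4, 57370397 to 57372704), is the constitutive subunit with caspase-like activity and part of every standard core, yet it was listed between 0.0902 and 0.627 FPKM over the 14 libraries. Psmb11, the beta subunit of the thymus, was listed at 0 to 0.0898 FPKM, and Psma3l at 0 throughout. The ubiquitin gene Rps27a was likewise listed at 0 to 0.24 FPKM and the segregase cofactor Ufd1l at 0 in every library. Both are genes that cells use widely, so such low entries may be failed estimates and are not read as absence.

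The remaining constitutive catalytic subunits were abundant and higher in the pineal gland than in the retina. Psmb5, on chromosome 15 (rn4, 32689859 to 32694364), carries the chymotrypsin-like site. Its pineal levels were 30.7 FPKM at the lowest, 40.6 at the median and 46.1 at the highest, and its retinal levels were 25.9, 29.2 and 39.2. The groups overlapped, since retina ZT7 lay above pineal ZT7, ZT19 and ZT23. Psmb7, the trypsin-like subunit, lay between 36.9 and 51.0 FPKM in the pineal gland (median 47.1) and between 31.9 and 41.6 in the retina (median 32.9). Of the retinal libraries only ZT7 exceeded the lowest pineal library, ZT19. The pineal minus retina difference on the log2(FPKM + 1) scale, which understates changes of low genes, was 0.37 for Psmb5 (adjusted p = 0.0201) and 0.42 for Psmb7 (adjusted p = 0.000519). These p-values, and all others below, come from limma with Benjamini-Hochberg adjustment over all genes tested. Both calls were lost after quantile normalization, with differences of 0.09 (adjusted p = 0.434) and 0.12 (adjusted p = 0.129).

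The immunoproteasome subunits had a steeper order of tissues: lowest in the retina, higher in the pineal gland and far higher in the mixed pools. Psmb8, on chromosome 20 (rn4, 4786260 to 4789223), was measured at 2.68, 3.03, 5.41, 2.76, 2.36 and 2.03 FPKM in the pineal gland, in order from ZT1 to ZT23. In the retina it stood at 1.60, 0.712, 1.09, 0.588, 0.479 and 0.252 FPKM at the same times. The mixed pools had 16.9 FPKM at ZT7 and 13 at ZT19. No values overlapped between the 3 tissues, and mean FPKM was 3.87-fold higher in the pineal gland and 18.9-fold higher in the mixed pools than in the retina. On the log2(FPKM + 1) scale the pineal gland exceeded the retina by 1.18 (SE 0.191, adjusted p = 5.85e-05). The pineal gland lay below the mixed pools by 2.01 (difference -2.01, SE 0.270, adjusted p = 8.55e-06), and the retina by 3.19 (difference -3.19, SE 0.270, adjusted p = 5.3e-08).

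Psmb9, the neighbour of Psmb8 on chromosome 20 (rn4, 4801187 to 4806608), ranged from 1.10 to 4.20 FPKM in the pineal gland with a median of 2.70. Its retinal range was 0.384 to 1.45 FPKM with a median of 1.03, and the mixed pools had 16.6 and 10.1. Pineal and retinal values overlapped in 1 pineal library, ZT23. Psmb10 (chromosome 19, rn4, 35777710 to 35780194) had a pineal range of 3.29 to 7.87 FPKM with a median of 5.99, a retinal range of 2.21 to 4.98 with a median of 3.68, and 17.0 and 11.5 FPKM in the mixed pools. For Psmb10 the pineal libraries at ZT19 and ZT23 lay within the retinal range. The pineal minus retina difference was 0.86 for Psmb9 (SE 0.209, adjusted p = 0.00192) and 0.54 for Psmb10 (SE 0.201, adjusted p = 0.0276). The Psmb10 call was lost without pineal ZT1, ZT13 or ZT15 or retina ZT19 or ZT23, with adjusted p between 0.053 and 0.0679.

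Set against the constitutive subunits they replace, the inducible subunits were a small part of the transcripts in the pineal gland and the retina, and a larger part in the mixed pools. Psmb8 made up 4.95% to 11.3% of the summed FPKM of Psmb5 and Psmb8 in the pineal gland (median 6.54%), 0.964% to 4.53% in the retina (median 1.85%), and 22.2% and 26.1% in the mixed pools. Every pineal share lay above every retinal share and below both mixed shares. Psmb10 made up 7.28% to 14.1% of the sum of Psmb7 and Psmb10 in the pineal gland, 6.25% to 11.4% in the retina, and 25.4% and 19.9% in the mixed pools. For this pair the pineal and retinal shares overlapped. No share is given for Psmb9, because its partner Psmb6 was listed near 0.

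**Figure D2:**
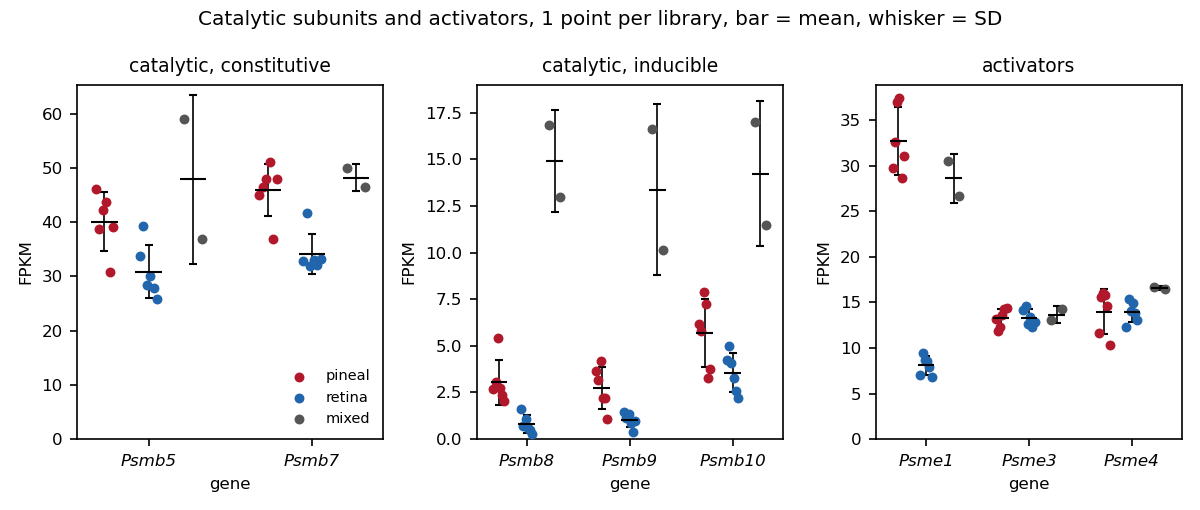
FPKM of constitutive catalytic subunits (left), inducible catalytic subunits (middle) and activators (right), 1 point per library, with bars at the mean and whiskers of 1 SD for 6 pineal, 6 retina and 2 mixed libraries. Psme1 is high in the pineal gland and the mixed pools and low in the retina, while Psmb8 to Psmb10 are highest in the mixed pools.

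Genes of leukocytes, which carry immunoproteasomes, followed the same order. A list of 11 genes of microglia and other leukocytes summed to 65.9 to 108 FPKM in the pineal gland, 12.8 to 21.4 in the retina, and 200 and 260 in the mixed pools, and none was listed at 0. Against the retina 11 of 11 were higher in the pineal gland, beside 36.9% of all genes. Against the mixed pools 10 of 11 were lower there, beside 45.0% of all genes. Cd74, a chaperone of class II antigen presentation, had the highest level, at 21.7 to 41.4 FPKM in the pineal gland and 0.498 to 2.45 in the retina. A list of 3 blood genes summed to between 990 and 1862 FPKM in the pineal gland and between 65.8 and 135 in the retina. Its sums in the mixed pools, 1582.5 and 2088.1 FPKM, overlapped the pineal range, and 0 of the 3 were called between those tissues. A list of endothelial genes summed to 12.8 to 20.9 FPKM in the pineal gland, 7.88 to 11.3 in the retina, and 67.3 and 86.5 in the mixed pools, with Cldn5 listed at 0 in every library. Of the 4 endothelial genes tested, 3 were higher and 1 lower in the pineal gland than in the retina. All 4 were lower in the pineal gland than in the mixed pools. The part of these cells in the proteasome differences was not tested, and in such bulk samples a different number of cells of a type cannot be told apart from a different amount of RNA per cell. Of 11 tested genes of interferon response and antigen presentation, 8 were higher in the pineal gland than in the retina and 0 lower. Over all genes these shares were 36.9% and 32.0%. In the retina 10 of the 11 were lower than in the mixed pools, beside 46.6% of all genes. The pineal gland had 2 of the 11 higher than the mixed pools and 3 lower, beside 19.8% and 45.0% of all genes. B2m, the light chain of class I molecules, had 202 to 255 FPKM in the pineal gland, 19.5 to 32.6 in the retina, and 361 and 387 in the mixed pools.

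Start regions of 42 of the 48 genes were matched by gene to RefSeq (build GRCr8), each from 250 bases before to 50 bases after the annotated start. The following are those of the 3 inducible subunits, of Psme1 and of Psmb5, the constitutive partner of Psmb8. They are a choice: Psmd5 differed more between pineal gland and retina than Psmb10 did. The region of Psmd5 held none of the 3 motifs below and is not printed. Capitals mark 3 motifs searched on both strands: an interferon response element (GAAA, any 2 bases, GAAA), an antioxidant response element (TGACNNNGC) and the CCAAT box. They run 5′ to 3′ on the gene's own strand.
Psmb8 (chr20:4656982-4657281, minus strand): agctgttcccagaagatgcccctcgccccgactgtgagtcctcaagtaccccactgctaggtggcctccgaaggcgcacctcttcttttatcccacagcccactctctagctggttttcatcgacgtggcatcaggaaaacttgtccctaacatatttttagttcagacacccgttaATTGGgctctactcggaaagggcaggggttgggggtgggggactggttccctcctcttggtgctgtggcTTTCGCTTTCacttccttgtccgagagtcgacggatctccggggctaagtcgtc
Psmb9 (chr20:4668750-4669049, plus strand): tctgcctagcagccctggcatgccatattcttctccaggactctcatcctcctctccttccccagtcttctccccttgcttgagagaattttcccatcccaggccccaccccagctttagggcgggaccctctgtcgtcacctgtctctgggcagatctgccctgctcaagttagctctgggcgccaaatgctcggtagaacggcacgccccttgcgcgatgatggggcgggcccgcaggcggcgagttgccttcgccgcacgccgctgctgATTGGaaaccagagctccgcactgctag
Psmb10 (chr19:50743243-50743542, minus strand): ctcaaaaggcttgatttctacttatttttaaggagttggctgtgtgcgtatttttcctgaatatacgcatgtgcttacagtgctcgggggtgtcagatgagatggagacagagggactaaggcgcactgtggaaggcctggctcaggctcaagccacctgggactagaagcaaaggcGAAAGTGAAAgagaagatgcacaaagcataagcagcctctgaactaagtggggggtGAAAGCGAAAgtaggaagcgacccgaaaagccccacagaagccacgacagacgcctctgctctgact
Psme1 (chr15:33038721-33039020, plus strand): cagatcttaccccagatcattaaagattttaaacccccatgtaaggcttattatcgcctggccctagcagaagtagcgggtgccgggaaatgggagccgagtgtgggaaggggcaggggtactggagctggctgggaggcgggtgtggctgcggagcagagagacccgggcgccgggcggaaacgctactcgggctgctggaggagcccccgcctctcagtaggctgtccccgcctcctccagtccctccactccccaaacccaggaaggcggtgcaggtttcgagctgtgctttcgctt
Psmb5 (chr15:32047330-32047629, minus strand): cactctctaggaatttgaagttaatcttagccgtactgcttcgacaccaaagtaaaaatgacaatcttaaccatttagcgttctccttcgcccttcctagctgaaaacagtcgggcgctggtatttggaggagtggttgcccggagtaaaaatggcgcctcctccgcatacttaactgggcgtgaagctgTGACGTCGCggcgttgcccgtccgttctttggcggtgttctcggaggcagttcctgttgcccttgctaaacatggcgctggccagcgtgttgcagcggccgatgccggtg

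Psmb10 held the interferon motif at -73 and -17 from the annotated start, and Psmb8 held it on the opposite strand at -4. Psmb9 and Psme1 held no full match in these windows. The Psme1 window ends in tttcgctt, letters that also begin the match of Psmb8, and the bases beyond it were not searched. The motif was found in 7 of 42 regions (16.7%), those of Psma4, Psmb3, Psmb8, Psmb10, Psmd7, Psme2 and Psmg4, and in 3.92% of all 33469 RefSeq start regions of rat genes. The antioxidant motif, which NRF1 and NRF2 bind, lay at -60 in Psmb5 and in 8 of 42 regions (19%, against 12.1% of all). Its match in Psmb5 overlaps the core of the cAMP response element (TGACGT), a motif of cyclic AMP signalling that was found in 4 of 42 regions (9.52%, against 7.94%). Only Psmb2 held the full TGACGTCA, at -90, as did 1.83% of all regions. CCAAT was found in 21 of 42 (50%, against 37.5%). A match describes letters and shows no binding.

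Among the activators, which open the core's gate without the cap, Psme1 showed the largest difference between pineal gland and retina of the 45 genes tested. Psme1 encodes the alpha subunit of PA28, an interferon-inducible ring, on chromosome 15 (rn4, 33712892 to 33715769). Its pineal levels were 29.7, 32.6, 37.0, 37.4, 28.7 and 31.0 FPKM from ZT1 to ZT23, against 7.04, 9.44, 8.69, 8.62, 7.88 and 6.85 in the retina and 30.6 and 26.7 in the mixed pools. All pineal values lay above every retinal value, mean FPKM was 4.05-fold higher, and the mixed pools lay close to the pineal gland. The pineal minus retina difference was 1.89 (SE 0.0911, adjusted p = 5.72e-11), and it was past the threshold in all 21 alternative fits. The retina minus mixed difference was -1.71 (adjusted p = 1.32e-08). Psme2, the partner subunit of the same ring, stood at 0.593 to 1.10 FPKM in the pineal gland, 0.149 to 0.586 in the retina, and 0.668 and 0.797 in the mixed pools. Pineal and retinal levels of Psme2 did not overlap (log2 difference 0.48, adjusted p = 0.000177), but its pineal mean was 39.1-fold below that of Psme1 in this table, and an entry so low may be an underestimate.

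The other activators did not differ detectably between the tissues. Psme3, the nuclear PA28 gamma, had 11.8 to 14.4 FPKM in the pineal gland (median 13.4), 12.2 to 14.6 in the retina (median 13.2), and 13 and 14.3 in the mixed pools. Psme4 encodes PA200, known for degrading acetylated histones, and ranged from 10.3 to 16.0 FPKM in the pineal gland and from 12.3 to 15.3 in the retina. Pineal minus retina differences were -0.01 for Psme3 (SE 0.0679, adjusted p = 0.941) and -0.01 for Psme4 (SE 0.103, adjusted p = 0.959). Psmf1, the inhibitor PI31, was measured at 12 to 21.7 FPKM in the pineal gland (median 16.8) and 8.99 to 17.0 in the retina (median 11.3). Its groups overlapped, and its difference of 0.47 passed the test (adjusted p = 0.00969).

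Assembly chaperones included the clearest pineal enrichment outside the antigen-processing genes. Psmd5, on chromosome 3 (rn4, 13861844 to 13879127), encodes a chaperone that holds base ATPases before the cap is complete. Its pineal levels were 21.3, 24.8, 22.4, 23.8, 16.9 and 17.1 FPKM from ZT1 to ZT23, its retinal levels 9.15, 10.7, 8.64, 9.29, 8.82 and 8.73, and its mixed levels 10.9 and 8.76. Pineal values all lay above those of both other tissues, which overlapped each other. The pineal gland exceeded the retina by 1.10 (SE 0.101, adjusted p = 1.29e-07) and the mixed pools by 1.02 (SE 0.143, adjusted p = 1.33e-05). Psmd9, another base chaperone, did not pass the test between pineal gland and retina (0.30, adjusted p = 0.0991).

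Psmd10, or gankyrin, was uneven between libraries: 9.42, 20.1, 9.44, 19.5, 19.2 and 10.6 FPKM in the pineal gland from ZT1 to ZT23, and 4.97, 11.8, 3.25, 9.31, 5.07 and 9.08 in the retinal libraries. High and low libraries alternated in the retina, while ZT7, ZT15 and ZT19 were high in the pineal gland, and no 24-h rhythm passed the test. The tissues overlapped, since retina ZT7 lay above pineal ZT1, ZT13 and ZT23. The deposited span of this transcript is 169 bases, and whether this bears on the uneven values was not tested. Its pineal minus retina difference was 0.96 (SE 0.285, adjusted p = 0.00761). The chaperones of the core also differed. Psmg2 (difference 0.57, adjusted p = 0.000448) and Psmg4 (0.45, adjusted p = 0.00101) were higher in the pineal gland, while Psmg1, the partner of Psmg2, was lower (-0.28, adjusted p = 0.0496). Psmg1 levels were 5.87 to 10.2 FPKM in the pineal gland and 9.23 to 11.8 in the retina, with overlap, and its call was lost in 13 of 21 alternative fits.

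Counted over all roles, 28 of the 45 tested genes were higher in the pineal gland than in the retina and 2 were lower. Of all 11656 genes tested, 36.9% were higher and 32.0% lower. The median difference was 0.39 over the 45 genes and 0.03 over all genes. All 4 structural beta subunits, both constitutive catalytic subunits and all 3 inducible ones were called higher, as were 4 of 7 alpha subunits and 7 of 11 non-ATPase cap subunits. Psmd14, the deubiquitinase of the cap, led the cap subunits with 20.7 to 35.7 FPKM in the pineal gland (median 31.7), 14.5 to 20.1 in the retina (median 15.2), and 19.3 and 21.1 in the mixed pools. Its pineal minus retina difference was 0.85 (adjusted p = 1.71e-05), with no overlap between those tissues. By contrast 1 of 6 ATPases was called, Psmc1 at 0.42 (adjusted p = 0.00187), and Psmc5 leaned the other way at -0.22 (adjusted p = 0.0542).

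This balance depended on how libraries were scaled. After quantile normalization 19 genes were higher and 6 lower, beside 38.7% and 33.0% of all genes. Of the 30 calls, 21 were kept in the same direction. With this scaling 5 of 6 ATPases had negative differences, and Psmb1 turned negative (-0.09). After median ratio scaling 27 were higher and 4 lower, beside 35.1% and 36.0% of all genes, and 29 of the 30 calls were kept. With the ZT7 and ZT19 libraries alone, 5 genes were called, all higher, and the share over all genes is not given for that smaller fit. Psme1, Psmb8, Psmb9, Psmd5 and Psmd10 kept their calls under all 21 alternatives.

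**Figure D3:**
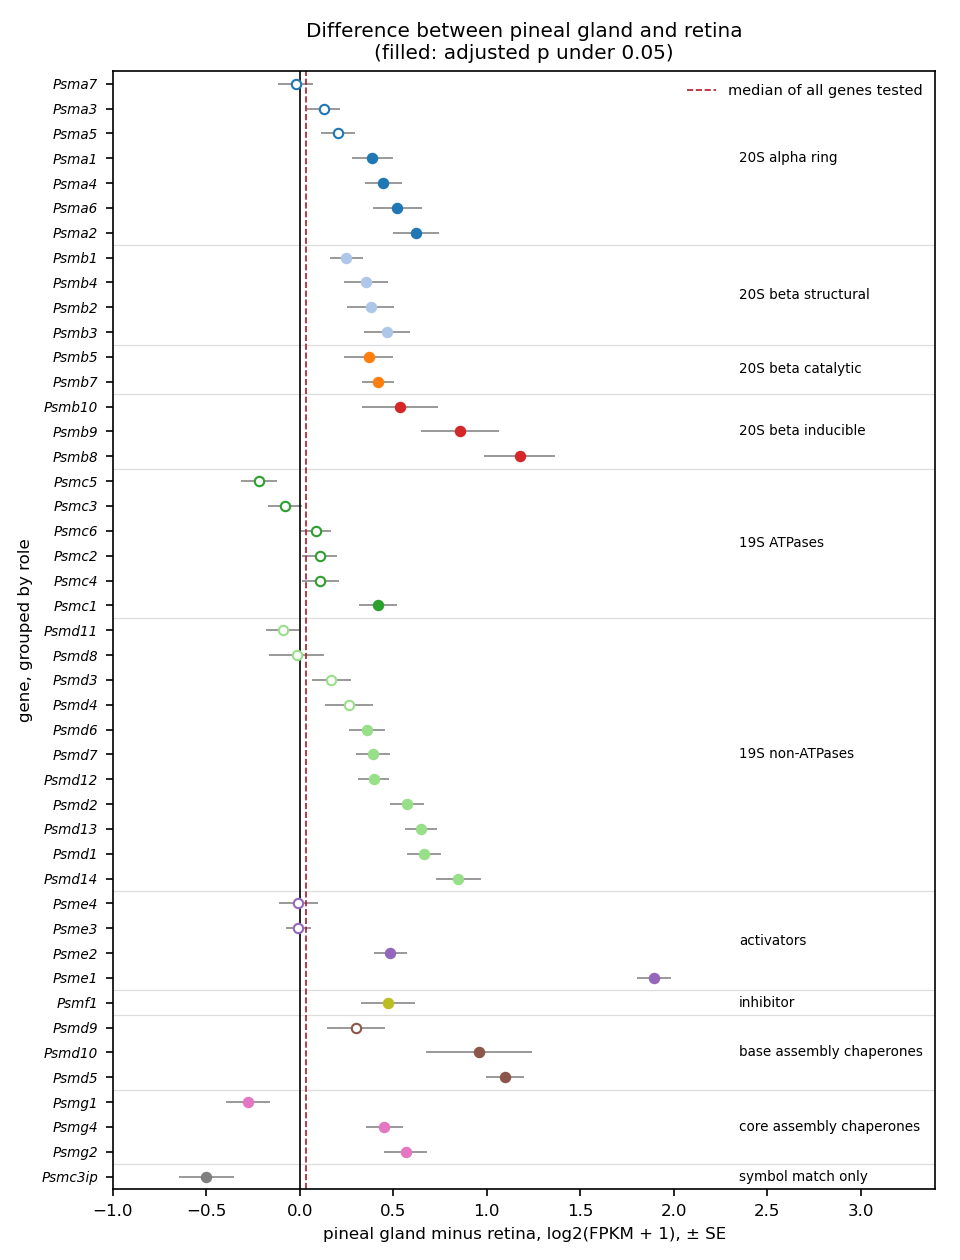
Pineal minus retina difference on the log2(FPKM + 1) scale (x axis) for the 45 genes tested (y axis, grouped by role), with bars of 1 SE; filled points passed an adjusted p of 0.05, and the dashed line is the median of all genes tested at 0.03. Psme1 stands farthest to the right at 1.89, and all points of the inducible, structural and catalytic beta subunits are filled on the higher side.

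Against the mixed pools, 9 of 45 genes were called for the pineal gland and 27 for the retina. These comparisons share the 2 mixed libraries, and the difference between the counts was not tested. Quantile normalization gave counts of 16 and 20, and median ratio scaling gave 14 and 18. For the pineal gland 2 of 45 genes were higher, Psmd5 and Psmd14 (0.54, SE 0.172, adjusted p = 0.0119), and 7 were lower. Over all genes tested, 19.8% were higher and 45.0% lower. Psmb8, Psmb9 (-1.96, SE 0.295, adjusted p = 2.82e-05) and Psmb10 (-1.21, SE 0.284, adjusted p = 0.00154) had the largest falls. The other lower genes were the ATPases Psmc3 and Psmc5 and the alpha subunits Psma1 and Psma7. The median difference was -0.12 over the 45 genes and -0.25 over all genes. After quantile normalization, which moved the median of all genes to 0.22, 9 were higher and 7 lower, beside 45.3% and 29.8% of all genes. After median ratio scaling 9 were higher and 5 lower, beside 29.3% and 39.6% of all genes. The Psmd14 call was lost without the mixed ZT7 library (adjusted p = 0.104).

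For the retina 1 of 45 genes was higher than in the mixed pools and 26 were lower, where 18.4% of all genes were higher and 46.6% lower. The higher gene was Psmc3ip, which is no proteasome gene. Its levels were 3.48 to 6.61 FPKM in the retina (median 4.01), 2.01 to 3.97 in the pineal gland (median 2.74), and 2.15 and 2.19 in the mixed pools. The retina thus lay above both mixed pools in every library, by 0.75 (adjusted p = 0.00533), and above the pineal gland by 0.50 with overlap (pineal minus retina -0.50, adjusted p = 0.00737). The largest falls were those of Psmb8, Psmb9 (-2.82, SE 0.295, adjusted p = 6.13e-07) and Psmb10 (-1.75, SE 0.284, adjusted p = 6.53e-05). The median difference was -0.44 over the 45 genes and -0.30 over all genes. Quantile normalization left 5 higher and 15 lower, beside 44.7% and 30.4% of all genes. Median ratio scaling left 2 higher and 16 lower, beside 31.5% and 38.0% of all genes. Without the mixed ZT7 library 17 genes in all were called. All 3 inducible subunits were lower than in the mixed pools in both tissues under each of these scalings.

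Over the day, 7 of 45 genes were rhythmic in the pineal gland (15.6%), where 20.7% of all 10416 genes tested were. Rhythm was tested as a 24-h cosine curve, and its size is given as the peak-to-trough height of that curve in log2. The median size was 0.41 over the 45 genes and 0.39 over all genes. The 7 were Psma6 (0.83, adjusted p = 0.0198), Psmg1 (0.69, adjusted p = 0.0101), Psmc3ip (0.65, adjusted p = 0.0138), Psmd5 (0.56, adjusted p = 0.0471), Psme4 (0.56, adjusted p = 0.0256), Psmd1 (0.48, adjusted p = 0.0318) and Psmd2 (0.43, adjusted p = 0.0434). Their fitted peaks lay in the light, between ZT8.14 and ZT12.6. Of the 45 genes 19 had an unadjusted p under 0.05, as did 3894 of all 10416 genes.

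Psma6, an alpha subunit of the gate ring, had the largest rhythm. It measured 23.9, 26.9, 25.7, 22.0, 15.1 and 16.7 FPKM in the pineal gland, in order from ZT1 to ZT23. The light libraries were all above the late dark ones, and ZT15 lay between. Psmd1 and Psmd2, the large scaffolds of the cap, were also lowest in late dark: Psmd1 ran from 42.6 FPKM at ZT7 to 31.1 at both ZT19 and ZT23, and Psmd2 from 60.6 at ZT13 to 45.6 at ZT19. Psmd5 fell from 24.8 FPKM at ZT7 to 16.9 at ZT19.

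Psmg1, Psme4 and Psmc3ip had another shape, with their low point around dawn. Psmg1 rose from 6.53 FPKM at ZT1 through 9.30 and 9.78 to 10.2 at ZT15, and was at 7.63 at ZT19 and 5.87 at ZT23. Psme4 stood at 11.6, 15.6, 16.0, 15.8, 14.6 and 10.3 FPKM over the same times. Psmc3ip stood at 2.17, 2.78, 3.97, 3.41, 2.70 and 2.01. For these 3 genes ZT23 was the lowest library and ZT1 the next.

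The pineal rhythm calls rest on few libraries. Without pineal ZT23 none of the 45 genes was called, without ZT13 1 was, and without ZT19 4 were. Psma6 (0.67, adjusted p = 0.0695), Psmd1 (0.45, adjusted p = 0.0675), Psmd2 (0.35, adjusted p = 0.0834) and Psmd5 (0.46, adjusted p = 0.117) were not called without pineal ZT19. Leaving out retina ZT1, ZT19 or ZT23 gave 4, the pineal gland fitted alone gave 0, and leaving out pineal ZT1 or ZT7 gave 11. Leaving out pineal ZT19 and retina ZT7 together gave 5 in an analysis added after seeing the data. Shares over all genes are not given for these fits, so the losses are not read as particular to these genes. Psmd5 lost its call in 15 of 19 alternative fits, Psmd2 in 12 and Psmd1 in 10. After median ratio scaling 5 of the 45 genes were called, beside 20.4% of all genes. Psmd1 (0.31, adjusted p = 0.0996), Psmd2 (0.26, adjusted p = 0.123), Psmd5 (0.39, adjusted p = 0.0768) and Psme4 (0.43, adjusted p = 0.0983) lost their calls with that scaling.

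By role, 0 of 6 ATPases, 0 of 4 structural beta subunits and 0 of 2 constitutive catalytic subunits were rhythmic in the pineal gland, and 2 of 11 non-ATPase cap subunits were. With 20.7% of all genes rhythmic, counts this small are descriptions only. Psmb5 had a fitted size of 0.23 (adjusted p = 0.691) and Psmb7 of 0.20 (adjusted p = 0.616). Psmf1 had 0.50 (adjusted p = 0.103), Psme1 0.32 (adjusted p = 0.136) and Psme3 0.29 (adjusted p = 0.173). The inducible subunits had large fitted curves that did not pass: 0.83 for Psmb10 (adjusted p = 0.132), 0.83 for Psmb9 (adjusted p = 0.27) and 0.74 for Psmb8 (adjusted p = 0.273). Fitted peaks fell in the light for 41 of 45 pineal curves, 34 of them of genes not called, and for 71.2% of all genes. In the retina they did so for 44 of 45, 43 of them of genes not called, and for 84.9% of all genes. The series share the same libraries, and the difference from all genes was not tested.

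**Figure D4:**
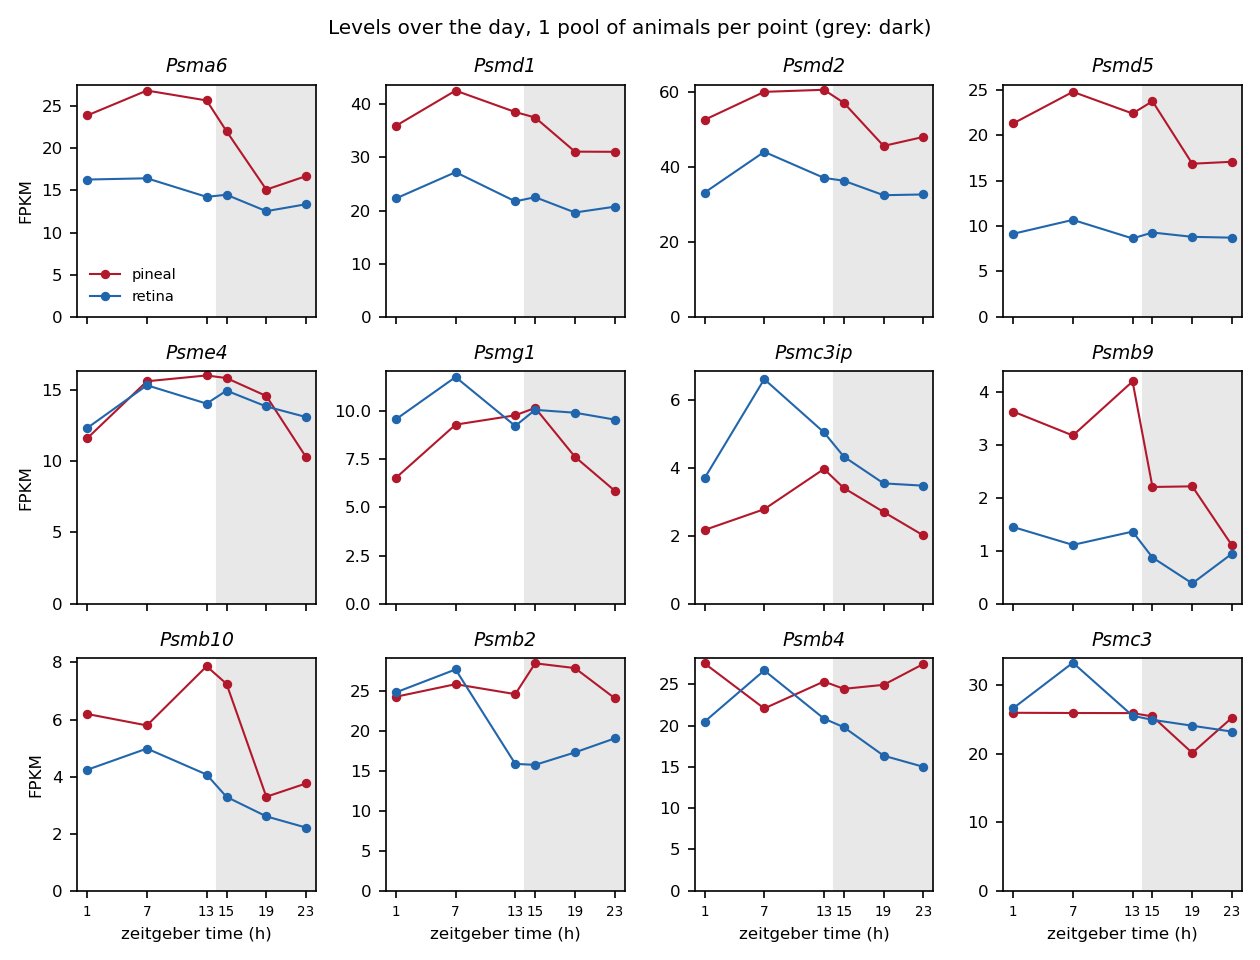
FPKM of 12 genes (y axis, starting at 0) against zeitgeber time in hours (x axis) in pineal gland and retina, 1 pool per point, with the dark phase in grey. Psma6, Psmb9 and Psmb10 are lower at ZT19 and ZT23 than at ZT1, ZT7 and ZT13 in the pineal gland, and Psmb2 and Psmb4 run apart in the tissues.

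A second comparison set the late dark libraries (ZT19 and ZT23) against those of the light. In the pineal gland 3 of 45 genes were lower and 0 higher, where 4.23% of all genes were lower and 3.04% higher. They were Psma6, Psmb10 and Psmb9. Psmb10 was measured at 6.19, 5.79 and 7.87 FPKM in the light, 7.25 at ZT15 and 3.29 and 3.76 in late dark. Its late dark levels were thus below all others, with a difference of -0.74 (SE 0.145, adjusted p = 0.0138). Psmb9 was measured at 3.63, 3.18 and 4.20 FPKM in the light, 2.21 at ZT15 and 2.22 and 1.10 in late dark (-0.84, SE 0.2, adjusted p = 0.0309). Its late dark levels did not overlap those of the light, and ZT15 lay just below ZT19. The late dark change of Psma6 was -0.65 (SE 0.111, adjusted p = 0.0072). Psmb8 had 2.68, 3.03 and 5.41 FPKM in the light and 2.36 and 2.03 in late dark (-0.52, adjusted p = 0.195).

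These calls were not stable. With ZT15 counted as dark, with the pineal gland fitted alone, or without pineal ZT19 and retina ZT7 together, 0 of 45 genes were called. Without pineal ZT19, Psmb10 had -0.67 (adjusted p = 0.113) and Psma6 -0.58 (adjusted p = 0.0741). Without pineal ZT23, Psmb9 had -0.53 (adjusted p = 0.149), and it lost its call in 11 of 20 alternative fits with adjusted p up to 0.324. The count was 1 without pineal ZT19 and 5 without pineal ZT1 or without retina ZT7. Shares over all genes are not given for these fits. Of the 10 leukocyte genes tested here, 1 was lower in late dark, Tyrobp (-0.55, adjusted p = 0.0472). The median late dark difference was -0.33 over these leukocyte genes, -0.51 over the blood genes and -0.29 over the endothelial genes, beside -0.12 over all genes. Of 11 interferon and antigen presentation genes, Irf9 (-0.90, adjusted p = 0.00556) and the class I gene RT1-A2 (-0.65, adjusted p = 0.0215) were lower and Irf8 was higher (1.41, adjusted p = 0.00187). The part of these genes and cells in the change was not tested.

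Late dark differences in the pineal gland had a median of -0.21 over the 45 genes, against -0.12 for all genes. After median ratio scaling the median was -0.07 over the 45 genes and -0.02 over all genes. The lowest pineal library was ZT19 for 28 of 45 genes (62.2%) and for 39.6% of all genes. After scaling these shares were 35.6% and 23%. From pineal ZT7 to ZT19, 41 of 45 genes were lower (median -0.32), beside 6998 of all 10416 genes (median -0.15). In the retina 43 of 45 were lower (median -0.44), beside 8338 of all 10416 (median -0.22). After scaling, 35 and 34 of 45 were lower, beside 5405 and 4810 of all 10416. The medians were then -0.14 and -0.16, and those of all genes -0.01 and 0.02. These steps rest on pineal ZT19 and retina ZT7, the libraries that stood apart.

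**Figure D5:**
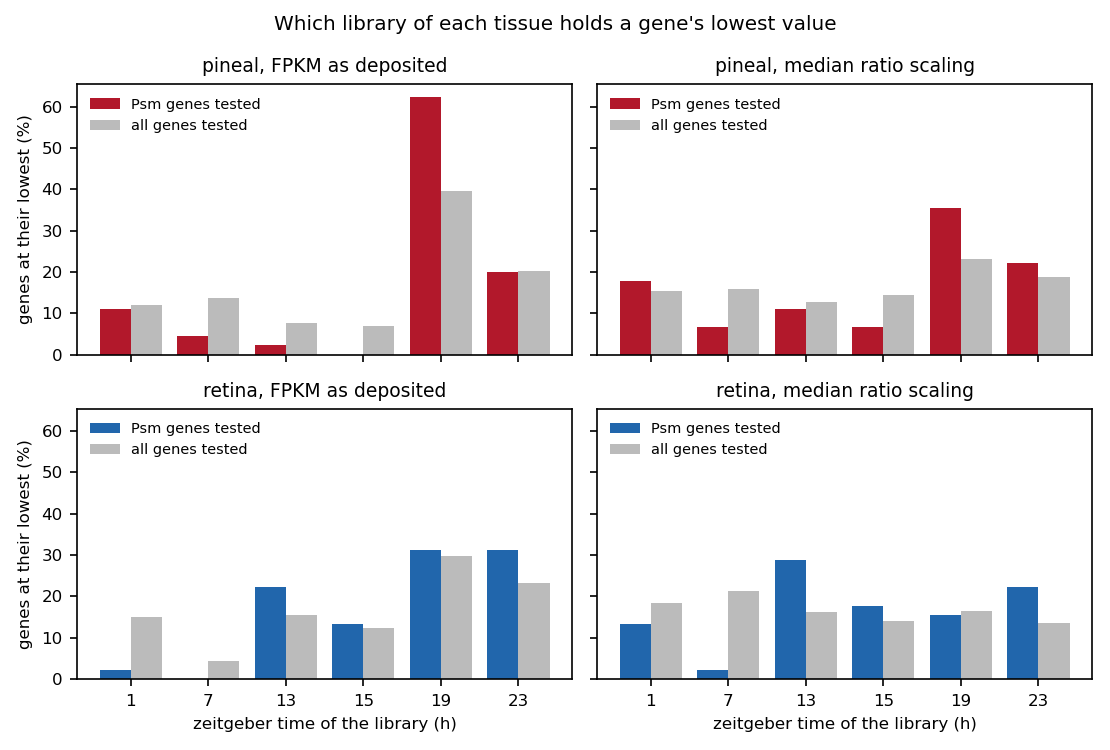
Share of genes (y axis, percent) whose lowest value of the day falls in the library of each zeitgeber time (x axis, hours), for the 45 genes tested and all genes tested, in pineal gland (top) and retina (bottom), as deposited (left) and after median ratio scaling (right). The bar of pineal ZT19 falls from 62.2% to 35.6% with scaling.

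In the retina 1 of 45 genes was rhythmic, against 1.02% of all genes. An unadjusted p under 0.05 was reached by 20 of the 45 and by 2251 of all 10416 genes. Psmb2, a structural beta subunit, measured 24.9, 27.7, 15.9, 15.8, 17.3 and 19.1 FPKM from ZT1 to ZT23. It was high at ZT1 and ZT7 and lower at the 4 later times, with a size of 0.85 (adjusted p = 0.0404). Without retina ZT7 the size was 0.65 (adjusted p = 0.235), and the call was lost in 14 of 20 alternative fits, among them those without any single retinal library and without pineal ZT1, ZT13 or ZT23. The count was 2 without pineal ZT7 or ZT15 and 3 without pineal ZT19. In late dark against light 0 of 45 retinal genes were called by limma, against 0.0096% of all genes. Unadjusted p was under 0.05 for 10 of the 45 and for 1238 of all 10416 genes. The retinal late dark difference was -0.67 for Psmb10 (adjusted p = 0.182), -0.63 for Psmb8 (adjusted p = 0.347) and -0.49 for Psmb9 (adjusted p = 0.375).

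Retina ZT7 was the highest retinal library for 39 of 45 genes (86.7%) and for 51.2% of all genes. After median ratio scaling it was the highest for 53.3% of the 45 and 15.7% of all genes. The median distance between the lowest and the highest library of the day, on the log2(FPKM + 1) scale, was 0.46 for the 45 genes in the pineal gland (0.52 for all genes) and 0.49 in the retina (0.40 for all genes). A distance of at least 1 was reached by 4 pineal genes (8.89%, all genes 11.6%) and 2 retinal genes (4.44%, all genes 2.75%).

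Rhythms differed between the tissues for 2 of 45 genes, where 4.95% of all genes did. Psmb2 stayed between 24.1 and 28.5 FPKM in the pineal gland (size of the difference 1.01, adjusted p = 0.0351). Psmb4, also a structural beta subunit, ran at 27.5, 22.1, 25.3, 24.5, 24.9 and 27.5 FPKM in the pineal gland and at 20.5, 26.7, 20.8, 19.8, 16.4 and 15.0 in the retina (0.97, adjusted p = 0.0478). Its pineal values were lowest at ZT7, the time at which the retinal ones were highest. These calls were lost in 12 of 19 and 15 of 19 alternative fits, and neither held without pineal ZT1, ZT15 or ZT23 or without retina ZT1, ZT7, ZT13, ZT15 or ZT23. Without retina ZT7 the adjusted p was 0.141 for Psmb2 and 0.222 for Psmb4. The late dark change differed between the tissues in 0 of 45 genes, against 0.71% of all genes. By an unadjusted p under 0.05 it differed in 3 of the 45 and in 1156 of all 10416 genes. For Psmb9 the difference of the changes was -0.35 (SE 0.283, adjusted p = 0.739), so its pineal fall was not shown to differ from the retinal one.

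Other genes of the ubiquitin pathway were counted in lists, as descriptions beside the 36.9% of all genes higher and 32.0% lower in the pineal gland than in the retina, and the 20.7% rhythmic there. Of 9 partners and assembly factors of the proteasome, 1 was rhythmic in the pineal gland, the cap deubiquitinase Uchl5 (0.67, adjusted p = 0.0277). Of these 9, 5 were higher and 1 lower in the pineal gland than in the retina. Usp14, the other deubiquitinase that docks on the cap, had 26.1 to 36.3 FPKM in the pineal gland and 17.2 to 21.2 in the retina (0.75, adjusted p = 5.48e-07). Of 5 ubiquitin genes and activating enzymes, 2 were higher and 0 lower. Uba1, which activates ubiquitin for most conjugation, had 116 to 191 FPKM in the pineal gland and 48.3 to 59.3 in the retina (1.51, adjusted p = 2.19e-08), and it was rhythmic in the pineal gland (0.71, adjusted p = 0.00201).

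Among 13 shuttles and segregase genes, which bring ubiquitylated proteins to the proteasome, 8 were higher and 1 lower in the pineal gland. The shuttle Ubqln4 had 34.9 to 49.0 FPKM there and 12.1 to 14.1 in the retina. Ubqln2, another shuttle, was rhythmic in the pineal gland (0.80, adjusted p = 0.00821). Of 7 genes that control proteasome gene expression, 4 were higher and 1 lower in the pineal gland than in the retina, and 0 of the 6 tested over time were rhythmic. Nfe2l1, which encodes NRF1, the factor that raises proteasome genes when degradation is blocked, had 27.8 to 46.5 FPKM in the pineal gland and 19.9 to 26.5 in the retina. Nfe2l2, which encodes NRF2, had 15.5 to 20.4 and 5.02 to 8.35. Of 6 genes of 14-3-3 proteins, the partners that protect AANAT, Ywhaq (0.71, adjusted p = 0.0111) and Ywhaz (0.70, adjusted p = 0.0125) were rhythmic in the pineal gland. Ywhaq was higher there than in the retina (0.86, adjusted p = 1.8e-05) and Ywhah lower (-0.34, adjusted p = 0.00769).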

How the data were processed

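The authors deposited FPKM per RefSeq transcript; TopHat 1.3.1, Cufflinks 1.2.0 and rn4 are named in the submitters' processing notes without their roles, and whether reads kept strand is not given in the sources used here. FPKM keeps no counts, so depth is unknown, and a few very abundant transcripts lower all others of a library. FPKM was summed per gene ID. Coordinates are rn4, with 1 added to starts that count from 0; the printed start regions are RefSeq's on GRCr8, a build used for them and for names alone.

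Values were fitted as log2(FPKM + 1) with limma 3.58.1 (R 4.3.3, moderated with a mean trend) for genes that reached 1 FPKM in 2 or more of the libraries fitted, two-sided, with a threshold of 0.05 after Benjamini-Hochberg adjustment over all genes (10416 over time, 11656 between tissues). Over time, rhythm was tested with cosine and sine terms of 24 h for each tissue, and a phase model compared ZT19 and ZT23 with ZT1, ZT7 and ZT13, with ZT15 as its own mean (6 residual degrees of freedom each). Tissues were compared over their libraries (11 residual degrees of freedom). Model code was tested on simulated data. Named were the catalytic, activator, inhibitor and chaperone genes, genes past the threshold over time, the 3 largest rises and falls past it per tissue comparison, and genes under 1 FPKM or matched by symbol alone; others, such as Psma7, Psmb1, Psmc1 and Psmc5 and single genes of the lists, were named after their values were seen. Members and lists were chosen with earlier results of these data known. Alternatives were a pseudocount of 0.1 FPKM, no filter, quantile normalization, median ratio scaling, the highest transcript per gene, each library left out, each tissue alone, ZT15 grouped with the dark, time of day as a block, retina without ZT1 and ZT19, and ZT7 and ZT19 alone.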

Additional observations from a re-analysis of the deposited data

Results flagged for a closer look

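Of 90 series of 6 libraries (45 genes in 2 tissues), 13 held 1 library whose gap to its neighbour took up most of the range; chance alone gives about 1 in 20. These series share 12 libraries and are not independent. Of all 10416 genes tested over time, 7% were flagged for the pineal gland and 6.63% for the retina, beside 2 and 11 of the 45. Retina ZT7 was the high library in all 11, and in 3.93% of all genes. Psma7 measured 79.3 FPKM there (56.3 to 64.7 in the other retinas), Psmb7 41.6 (31.9 to 33.1), Psmc3 33.3 (23.3 to 26.7), Psmd6 30.5 (21.6 to 22.9), Psmd3 26.9 (19.1 to 21.6) and Psmc4 20.1 (13.8 to 15.8). Psmc6 measured 18.4 FPKM in that library (13.6 to 14.5 elsewhere), Psma2 15.3 (8.74 to 10.6), Psmg4 13.9 (8.52 to 10.4), Psmg1 11.8 (9.23 to 10.1) and Psmd5 10.7 (8.64 to 9.29). In the pineal gland Psmb8 was high at ZT13 with 5.41 FPKM (2.03 to 3.03 elsewhere), and Psmc3 was low at ZT19 with 20.1 (25.3 to 26.0 elsewhere).

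The 24-h rhythm differed between pineal gland and retina for Psmb2 (limma, adjusted p = 0.0351) and Psmb4 (adjusted p = 0.0478) by the test of the difference itself.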

How the results depend on the processing

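For the named genes, the differences and rhythms that limma called as deposited were refitted under each alternative. Of these values 667 kept their direction and call, 151 kept the direction and lost the call, and 1 reversed: Psme2 in retina minus mixed tissue, 0.38 after quantile normalization (adjusted p = 0.00336). Outside these values, quantile normalization also turned retina minus mixed tissue for Psme3 (-0.04 to 0.26, adjusted p = 0.0295), Psmd5 (-0.08 to 0.27, adjusted p = 0.0417) and Psma7 (-0.34 to 0.09, adjusted p = 0.442), and pineal minus retina for Psmb1 (0.25 to -0.09, adjusted p = 0.257). The following are counts of the 45 genes called. Shares over all genes are not given for fits with libraries left out or a tissue alone. Changes of the counts there are not read as particular to these genes. Rhythmic in the pineal gland were 7, 5 after median ratio scaling, 0 with the tissue fitted alone, and 0 to 11 with each library left out in turn. Rhythmic in the retina was 1, which became 0 with the other pseudocount, without the filter, after median ratio scaling, without retina ZT1 and ZT19, and without retina ZT7 and pineal ZT19 (added after seeing the data); it was 4 with the retina alone and 0 to 3 with each library left out. The 2 rhythm differences became 1 with the other pseudocount, after median ratio scaling and without retina ZT7 and pineal ZT19, 0 without the filter and without retina ZT1 and ZT19, and 0 to 2 with each library left out. Late dark calls in the pineal gland were 3, 0 alone, 0 with ZT15 grouped with the dark, 0 without retina ZT7 and pineal ZT19, and 1 to 5 with each library left out. Late dark calls in the retina, and late dark differences between the tissues, stayed at 0 under every alternative run. Pineal gland against retina gave 30 calls, 5 with the ZT7 and ZT19 libraries alone, 28 to 32 with each library left out, and 33 (31 higher) with time of day as the replicate block. Pineal gland against mixed tissue gave 9, 16 after quantile normalization, 14 after median ratio scaling, and 6 to 11 with each library left out. Retina against mixed tissue gave 27, 9 with ZT7 and ZT19 alone and 17 to 32 with each library left out. The cause of these changes was not tested. Depth is unknown, and retinal levels of Psmb8, Psmb9 and Psme2 lie near or under 1 FPKM.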
